A study of Homo sapiens with 6 samples.

Results

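Mitochondrial ribosomal proteins are encoded in the nucleus, made in the cytosol and imported into mitochondria, where they form the large and small subunits of the mitochondrial ribosome. That ribosome translates the few proteins encoded by mitochondrial DNA, all of them subunits of the respiratory chain and ATP synthase. Some of its proteins have counterparts in bacterial ribosomes and others are specific to mitochondria. The genes described here were every gene symbol of the form MRPL or MRPS followed by a number and, at most, a letter A, B or C, which took 77 of the 25680 genes in the files. Of these, 50 encode proteins of the large subunit and 26 encode proteins of the small subunit. MRPS30 and MRPS18A are counted with the large subunit, where their proteins sit despite the S in their names. The remaining gene, MRPS36, carries a ribosomal name but encodes a component of the alpha-ketoglutarate dehydrogenase complex. By ancestry, 46 of the 76 ribosomal members were classed as having a bacterial counterpart and 30 as specific to mitochondria.

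Expression was measured by RNA-seq in U87 cells, an established human glioblastoma line, labelled wild type. All cells were given 500 nM of Rhodamine-EPP6, a cyclic peptide carrying a red fluorescent dye, for 1 h, then detached and sorted by fluorescence. High uptake means the brightest 30% of cells and low uptake the dimmest 30%, with 3 libraries each, numbered 2, 3 and 4. No untreated cells were among the samples, so every value below is a comparison between cells that had all received the peptide. The labels do not say whether the 3 libraries of a group came from separate cultures, so p-values measure the spread between these libraries.

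Total counts ran from 13712263 in high-uptake replicate 3 to 40742857 in high-uptake replicate 2, and every tested member had at least 80 counts in every library. Low-uptake replicates 3 and 4 were closer to each other (chi-square per degree of freedom 2.44) than any other pair within a group (12.2 to 20.8), but differed beyond sampling noise and were kept as separate libraries. Levels are given in CPM, counts scaled by TMM to a common library size. Of the U87 markers, 7 of 10 reached a mean of 1 CPM, with VIM and CD44 high and GFAP, S100B and SOX2 under 1 CPM in every library. The summed level of the U87 markers was 16735 to 18264 CPM in high uptake against 15417 to 16354 CPM in low uptake. Epithelial markers summed to 1.96 to 2.97 CPM against 2.07 to 2.68 CPM, and endothelial markers to 1.19 to 1.73 CPM against 1.05 to 1.42 CPM. Immune markers summed to 258 to 284 CPM against 234 to 283 CPM, nearly all of it CD68, while PTPRC and CD3E stayed under 1 CPM. Neuronal markers summed to 36.7 to 42.5 CPM against 26.4 to 30.5 CPM, and 1 of the 3, SNAP25, rose in high uptake (log2 fold change 0.80, edgeR adjusted p = 0.00987). What part these marker differences have in the results below was not tested. Of all genes tested, 4.29% differed between the groups in edgeR's quasi-likelihood test with Benjamini-Hochberg adjustment, 3.03% higher and 1.26% lower in high uptake.

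Messages of the mitochondrial ribosome lay slightly lower in the cells that took up more peptide, by about the same small amount in both subunits. Of the 76 tested members, 70 had a log2 fold change below 0 (92.1%, against 50.7% of all tested genes). The median log2 fold change was -0.14, against -0.00 over all tested genes, and the interquartile range of the members ran from -0.20 to -0.07, against -0.13 to 0.13 for all tested genes. As percent changes in level, members ran from -24.3% to 4.93%, with a median of -9.38%. One member, MRPL24, passed the adjusted threshold of 0.05 and was lower (1 of 76, against 1.26% of all tested genes), none was higher (background 3.03%), and 75 did not pass. At an unadjusted p under 0.05, edgeR had 20 members lower (background 7.97%) and 0 higher (background 10.4%). DESeq2 called 4 members lower (background 1.99%) and limma-voom 1 (background 1.22%), and both called 0 higher (backgrounds 4% and 2.91%). In bulk samples, fewer cells with a message and less of it per cell cannot be told apart.

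**Figure D1:**
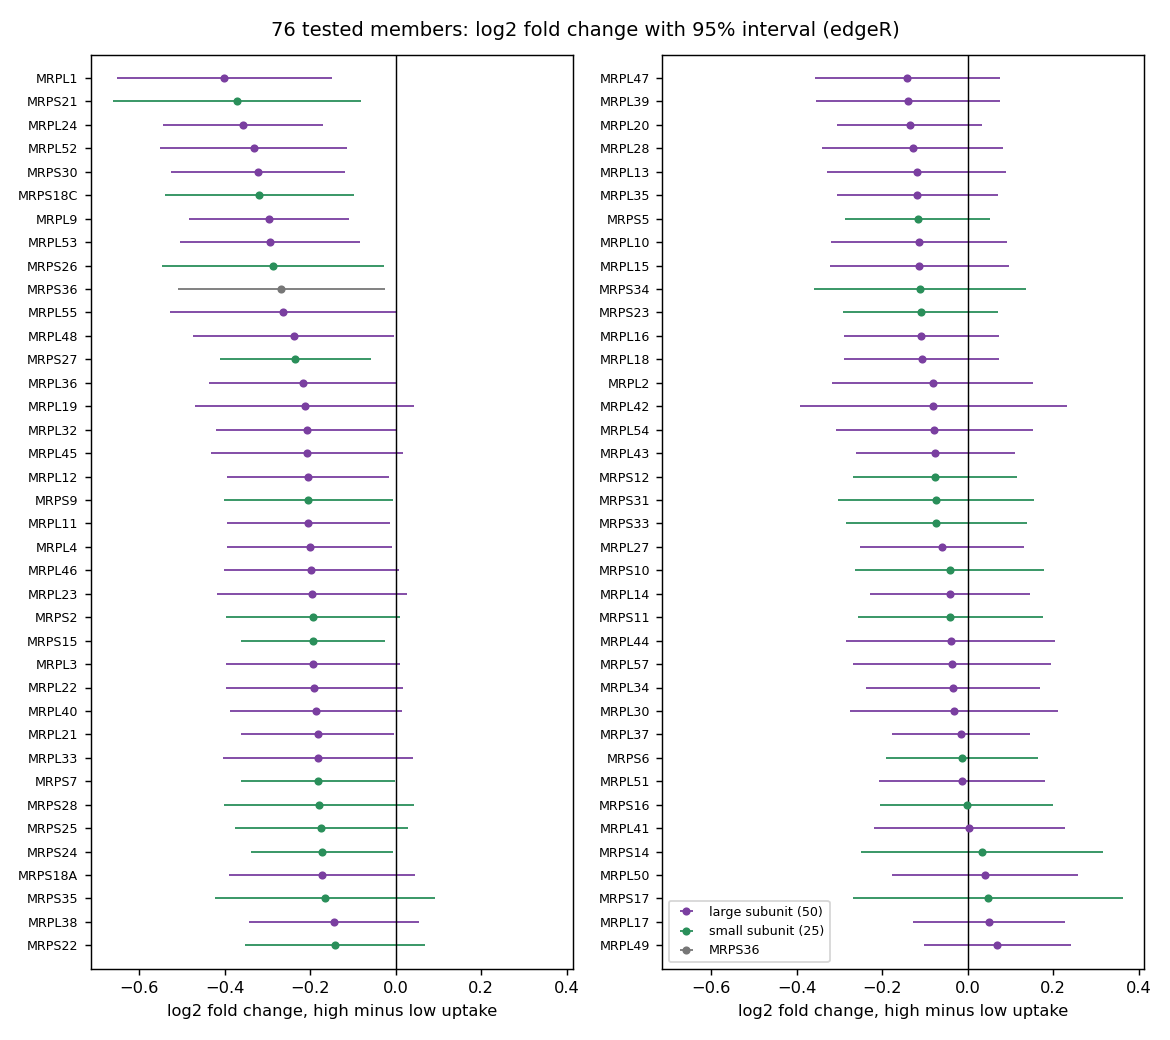
Log2 fold change (high minus low uptake) of each of the 76 tested members, ordered from the most negative, with its 95% interval from edgeR and coloured by subunit. Points run from -0.40 to 0.07, and 70 of the 76 lie left of the line at 0.

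MRPL24, the counterpart of the bacterial protein L24 that helps start assembly of the large subunit, was the one member to pass. Its level was 36.3, 39.9 and 39.5 CPM in the high-uptake libraries and 49.3, 51.0 and 47.8 CPM in the low-uptake libraries. The 2 groups did not overlap, and the low-uptake libraries were the more tightly grouped. The means were 38.6 ± 2.01 and 49.3 ± 1.62 CPM (SD, n = 3 each), a log2 fold change of -0.36 (SE 0.0852, 95% interval -0.54 to -0.17, edgeR adjusted p = 0.0397). The MRPL24 call was lost when any one library other than high-uptake replicate 3 was left out. The edgeR adjusted p was then 0.133 without high-uptake replicate 2, 0.116 without high-uptake replicate 4, and 0.0527, 0.16 and 0.129 without low-uptake replicates 2, 3 and 4.

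The next 5 members by p fell short of the threshold in edgeR but showed the same separation of libraries. MRPL1, whose bacterial counterpart forms the stalk beside the tRNA exit, had 20.03, 16.7 and 18.9 CPM in high uptake against 27.9, 22.2 and 23.5 CPM in low uptake. Its log2 fold change of -0.40 was the most negative of all members (SE 0.115, edgeR adjusted p = 0.0775). Each high-uptake library lay below each low-uptake library, though the low-uptake libraries spread widely, with replicate 2 above the others. MRPL9, the counterpart of bacterial L9, had 61.97, 63.5 and 71.4 CPM against 78.0, 83.2 and 80.8 CPM. The log2 fold change of MRPL9 was -0.30 (SE 0.0853, edgeR adjusted p = 0.0788). MRPS30, specific to mitochondria, had 37.9, 37.6 and 44.0 CPM against 51.5, 47.5 and 50.7 CPM. For MRPL9 and MRPS30 alike, high-uptake replicate 4 was the high-uptake library nearest to the low-uptake ones. The log2 fold change of MRPS30 was -0.32 (SE 0.0932, edgeR adjusted p = 0.0808). MRPL52, also specific to mitochondria, had 18.6, 21.2 and 17.5 CPM against 24.5, 23.9 and 23.4 CPM (log2 fold change -0.33, edgeR adjusted p = 0.092). Its low-uptake libraries lay close together and its nearest high-uptake library was replicate 3. MRPS18C had 37.9, 31.5 and 34.5 CPM against 47.7, 41.0 and 41.4 CPM (log2 fold change -0.32, edgeR adjusted p = 0.108). DESeq2 placed MRPL1 (adjusted p = 0.0338), MRPL9 (0.0329) and MRPS30 (0.0345) past the threshold, beside MRPL24 (0.00806).

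**Figure D2:**
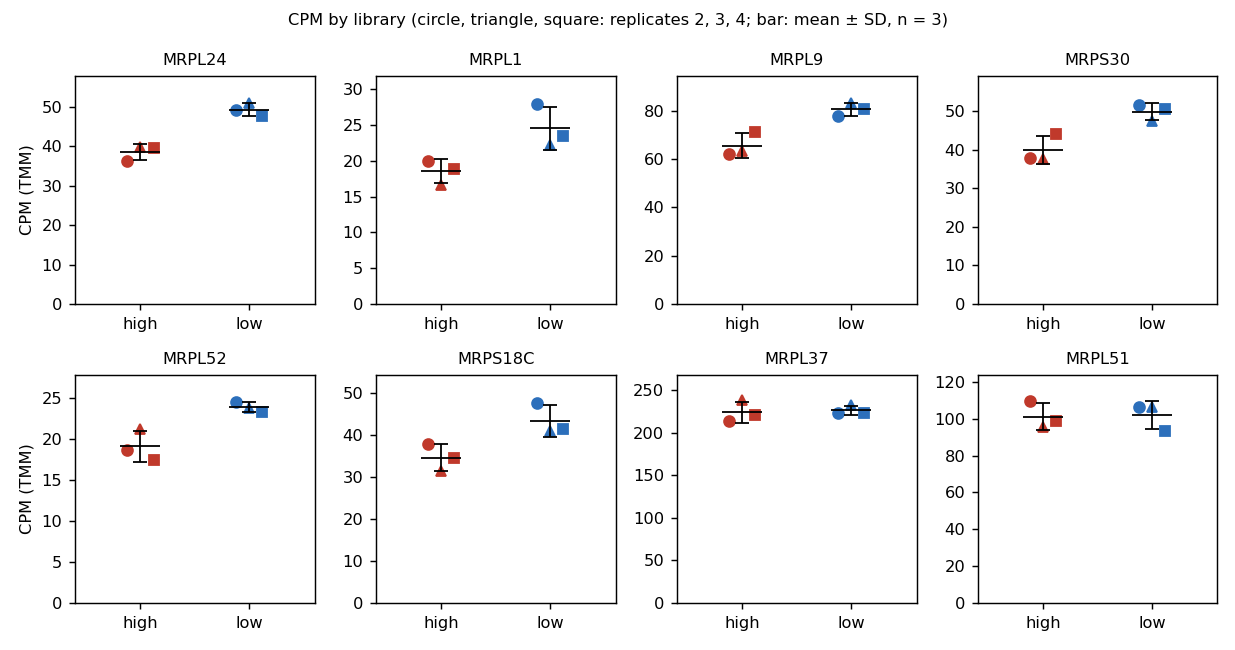
Level in CPM (axis from 0) in each library for the 6 members of smallest p and the 2 members of highest FPKM. Points are libraries and bars the mean and SD of 3; MRPL24 to MRPS18C have every high-uptake library below every low-uptake library, while MRPL37 and MRPL51 overlap.

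MRPS21, the counterpart of bacterial S21, had the second most negative fold change but not the second smallest p. Its level was 11.1, 12.9 and 13.4 CPM in high uptake against 13.4, 17.8 and 17.5 CPM in low uptake, so high-uptake replicate 4 and low-uptake replicate 2 lay side by side and the groups overlapped. The log2 fold change of MRPS21 was -0.37 (SE 0.133, edgeR adjusted p = 0.155). With low-uptake replicate 2 left out, MRPS21 was the 1 member that passed.

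At the other end of the range, no member was higher in all high-uptake libraries than in all low-uptake ones (0 of 76, against 13% of all tested genes). MRPL49, specific to mitochondria, had the highest fold change, with 76.8, 80.01 and 74.1 CPM in high uptake against 72.1, 76.3 and 71.5 CPM in low uptake. The groups overlapped, and the log2 fold change of MRPL49 was 0.07 (95% interval -0.10 to 0.24, edgeR adjusted p = 0.702). MRPL17, the counterpart of a bacterial protein at the peptide exit tunnel, had 96.3, 87.8 and 86.0 CPM against 83.8, 90.0 and 87.3 CPM (log2 fold change 0.05). MRPS17, the counterpart of bacterial S17, had 4.95, 5.94 and 5.28 CPM against 5.69, 4.45 and 5.23 CPM (log2 fold change 0.05), at the lowest counts of any tested member. MRPL50, specific to mitochondria, had 31.1, 26.3 and 27.8 CPM against 29.6, 25.7 and 27.8 CPM (log2 fold change 0.04). In all 4 genes the libraries of one group lay among those of the other.

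All 3 high-uptake libraries lay below all 3 low-uptake libraries for 25 members (32.9%, against 11.4% of all tested genes), 18 of the large subunit and 7 of the small. The 95% interval of the log2 fold change stayed within 1.5-fold in either direction for 74 of 76 members (97.4%, against 73% of all tested genes), so for these a larger difference lies outside the interval. The authors' deposited table, a list of 2305 symbols without values, named 18 of the 77 members (23.4%, against 8.98% of all genes in the files and 15.8% of tested genes). All 18 had a log2 fold change below 0 here, among them MRPL24, MRPL1, MRPL9, MRPS30, MRPL52, MRPS18C and MRPS21. The list comes from this same study, so it is no independent evidence of direction.

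Both subunits had the same median. Of 50 large-subunit members, 46 had a log2 fold change below 0, with a median of -0.14, 1 past the threshold, and 11 lower at an unadjusted p under 0.05. Of 25 tested small-subunit members, 23 lay below 0, with a median of -0.14. None of them passed the threshold, and 8 were lower at an unadjusted p under 0.05. Over all tested genes, 50.7% lay below 0, 1.26% were lower past the threshold and 7.97% were lower at an unadjusted p under 0.05. Members with a bacterial counterpart had a median of -0.16 (43 of 46 below 0) and those specific to mitochondria a median of -0.14 (26 of 29 below 0). Within the large subunit, the medians were -0.16 for the 30 members with a bacterial counterpart and -0.11 for the 20 specific to mitochondria. Within the small subunit they were -0.15 (16 members) and -0.14 (9 members). The differences between these classes were not tested.

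Summed over members, the large subunit had 2632, 2599 and 2560 CPM in the high-uptake libraries and 2873, 2835 and 2812 CPM in the low-uptake libraries. The means were 2597 ± 35.8 and 2840 ± 30.6 CPM (SD, n = 3 each), a change of -8.55%. The small subunit had 1272, 1229 and 1230 CPM against 1378, 1368 and 1356 CPM, with means of 1244 ± 24.6 and 1367 ± 10.9 CPM, a change of -9.05%. For both subunits the groups were apart by more than their spread. The members together took 0.389%, 0.378% and 0.380% of all counts in the high-uptake libraries and 0.434%, 0.423% and 0.422% in the low-uptake libraries. Gene by gene, the median deviation of the members from their own mean over the 6 libraries was -0.04, -0.08 and -0.09 on the log2 scale in high uptake and 0.09, 0.07 and 0.06 in low uptake. High-uptake replicate 2 was the high-uptake library with the smallest deviation. In each high-uptake library 48 to 66 of the 76 members lay below their own mean, and in each low-uptake library 20 to 22 did.

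**Figure D3:**
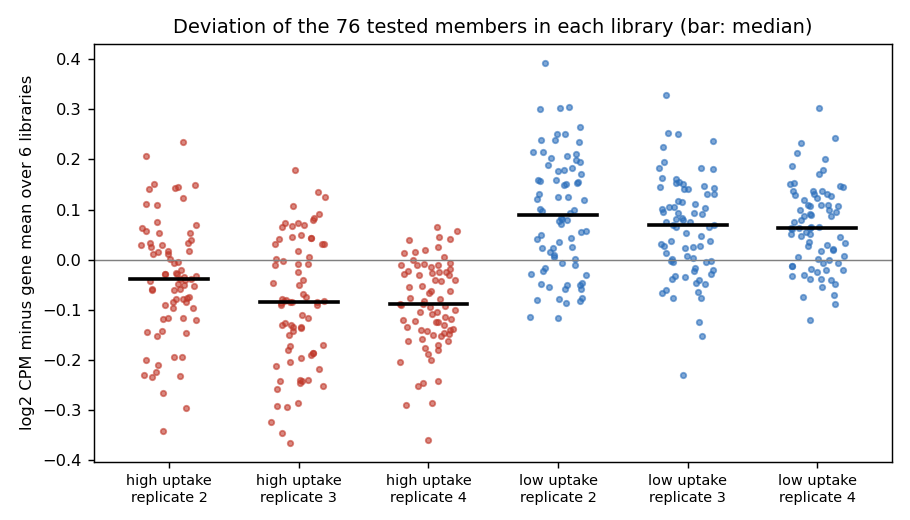
Deviation of each tested member from its own mean over 6 libraries (log2 CPM), by library, with the median as a bar. The medians of the 3 high-uptake libraries lie at -0.04, -0.08 and -0.09, and those of the 3 low-uptake libraries at 0.09, 0.07 and 0.06.

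Most of these proteins are assembled in equal numbers, but the messages of the members differed widely in level per length. In FPKM, averaged over the 6 libraries, levels ran from 4.83 for MRPS14 to 152 for MRPL37, a ratio of 31.5, with a median of 35.6 and 41 of the 76 between 20 and 60 FPKM. MRPL37, specific to mitochondria, had 143, 158 and 149 FPKM in high uptake and 153, 157 and 152 FPKM in low uptake. MRPL51, also specific to mitochondria, had 160, 138 and 145 FPKM against 160, 157 and 139 FPKM, so the 2 most abundant messages did not differ from each other beyond their spread. Their log2 fold changes in counts were -0.02 and -0.01, among the values nearest to 0, and the libraries of the groups overlapped. MRPL20, whose bacterial counterpart is needed early in large-subunit assembly, followed with 107, 107 and 100.3 FPKM against 119, 113 and 119 FPKM. MRPS24, the counterpart of bacterial S3, had 102, 102 and 101 FPKM against 113, 119 and 116 FPKM. MRPL12, the counterpart of the stalk protein that recruits elongation factors, had 103, 106 and 91.1 FPKM against 112, 119 and 121 FPKM. For MRPL20, MRPS24 and MRPL12 every high-uptake library lay below every low-uptake library, with log2 fold changes in counts of -0.14, -0.17 and -0.21, and none passed the adjusted threshold.

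The lowest tested members were MRPS14, the counterpart of bacterial S14 (5.51, 3.94 and 4.99 FPKM in high uptake, 5.23, 4.60 and 4.71 FPKM in low uptake), MRPL57 and MRPL19. MRPL57, specific to mitochondria, had 5.05, 5.55 and 4.83 FPKM against 5.15, 5.23 and 5.66 FPKM. MRPL19, the counterpart of bacterial L19, had 8.06, 6.10 and 7.41 FPKM against 9.74, 7.59 and 8.20 FPKM. In these 3 genes the groups overlapped. In the order of levels, 69 of 75 neighbouring pairs lay within the larger of their 2 SDs over libraries. The 6 pairs further apart were MRPL51 over MRPL20, MRPL3 over MRPS15, MRPL18 over MRPL14, MRPS10 over MRPL43, MRPL2 over MRPL48 and MRPL19 over MRPL57. Across members, the log2 fold change and the log2 mean FPKM had a Pearson r of 0.06 and a Spearman rho of 0.08 (76 genes from the same 6 libraries, given as a description).

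The MRPS18 family has 3 members in vertebrates, all related to bacterial S18 and placed at different sites of the ribosome. In the ancestry classes above, only MRPS18C was counted with a bacterial counterpart. MRPS18A and MRPS18B were counted as specific to mitochondria. MRPS18A, in the large subunit, had 51.2, 58.3 and 51.0 CPM in high uptake against 54.6, 66.7 and 59.2 CPM in low uptake. The groups overlapped, with a log2 fold change of -0.17 (SE 0.0995, edgeR adjusted p = 0.393). MRPS18C, which holds the place of bacterial S18 in the small subunit, is described above and did not overlap. MRPS18B was listed at 0 counts in all 6 libraries and was not tested. Its neighbourhood on chromosome 6 was also low in these files. Of 36 nearby protein-coding genes, 14 were listed at 0 in every library, among them ABCF1 and VARS2, and 32 had under 60 counts in every library, TUBB among them with 54 in total over the 6.

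Sequence before the start site is shown first for MRPL24, since it was the member past the threshold. The 250 bases before its start (chr1:156741089-156741338, minus strand, GRCh38.p14, from RefSeq), written 5′ to 3′, hold the motif of ZNF143, a zinc-finger activator of housekeeping promoters, at 2 places, marked in capitals.
MRPL24: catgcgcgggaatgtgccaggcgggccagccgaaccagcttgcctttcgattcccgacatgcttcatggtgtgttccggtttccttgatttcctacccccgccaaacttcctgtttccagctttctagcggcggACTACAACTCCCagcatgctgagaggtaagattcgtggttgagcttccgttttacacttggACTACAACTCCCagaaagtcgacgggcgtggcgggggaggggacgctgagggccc
This motif (the letters in capitals with any base at the eighth position, either strand) was searched after the MRPL24 sequence had been seen. Of the 68 members with a RefSeq promoter (250 bases before to 50 after the start), 2 held it (2.94%, against 1.03% of all 27305 promoters and 2.09% of the promoters of tested genes). The other member with it was MRPL50, one of the 4 members of highest fold change. Its value was nonetheless near 0 (log2 fold change 0.04, 95% interval -0.18 to 0.26, edgeR adjusted p = 0.883).
MRPL50 (chr9:101398781-101398804, minus strand): ccctcaACTACAACTCCCgtcatg

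A further 3 motifs of regulators of housekeeping and mitochondrial genes were searched on both strands. The ETS motif bound by GABPA, also called NRF2 in mitochondrial biogenesis (CCGGAAG), was in 28 of the 68 member promoters (41.2%, against 10.7% of all promoters and 18.2% of those of tested genes). Of the members whose match has 9 bases on either side within the 250 before the start, the 8 of smallest p are shown to let the letters be compared, with 25 bases (GRCh38.p14, RefSeq) and the match in capitals.
MRPS18C (chr4:83455827-83455851, plus strand): gctcgcggaCCGGAAGcacgcataa
MRPL53 (chr2:74472737-74472761, minus strand): agccggcggCCGGAAGtctatcccg
MRPS26 (chr20:3046006-3046030, plus strand): cccgcgccgCTTCCGGggcacggtg
MRPL48 (chr11:73787802-73787826, plus strand): tttcagaagCTTCCGGaactaaaat
MRPL3 (chr3:131502988-131503012, minus strand): taaaacgcaCCGGAAGtgggtccgg
MRPL20 (chr1:1407299-1407323, minus strand): ggggctgacCCGGAAGcgctcgtga
MRPS18A (chr6:43687807-43687831, minus strand): cgctacgttCCGGAAGcggaaatgg
MRPL38 (chr17:75905077-75905101, minus strand): caacgggcaCTTCCGGagccgggcg
The 7 capital letters are the same in all 8, read on the opposite strand in MRPS26, MRPL48 and MRPL38, while the bases beside them differ. The median log2 fold change was -0.13 over the 28 members with the motif and -0.17 over the 39 tested members without it.

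The YY1 motif (AAGATGGCG) was in 13 member promoters (19.1%, against 1.85% of all promoters and 3.84% of those of tested genes). In 3 of them a match lay before the start with room for the window, and these are shown with the match in capitals.
MRPL52 (chr14:22829815-22829839, plus strand): ccagattcAAGATGGCGacttcctg
MRPL36 (chr5:1799857-1799881, minus strand): ccccccgcCGCCATCTTccttcctg
MRPL32 (chr7:42932145-42932169, plus strand): ccgcgctcCGCCATCTTtacccgaa
The motif stands on the opposite strand in MRPL36 and MRPL32. The median log2 fold change was -0.18 over the 12 tested members with the motif and -0.14 over the 55 without it. The NRF1 motif (GCGC, any 2 bases and GCGC again) was in 9 member promoters (13.2%, against 8.78% of all promoters and 15.5% of those of tested genes), with medians of -0.04 with it and -0.15 without it. No 2 of the 4 motifs overlapped in a member promoter, and 44 of the 68 held at least 1 of them (64.7%, against 19.7% of all promoters and 34.2% of those of tested genes). A match is a description of letters in this window, and the differences between these medians were not tested.

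The rest of mitochondrial gene expression was taken from 7 lists, of which 127 genes were tested. Together, 108 of the 127 had a log2 fold change below 0 (against 50.7% of all tested genes), with a median of -0.11. Past the threshold, 2 were lower and 0 higher (backgrounds 1.26% and 3.03%). At an unadjusted p under 0.05, edgeR had 17 lower and 0 higher (backgrounds 7.97% and 10.4%). Of 8 genes with other names listed here with the mitochondrial ribosome, not all of which encode its structural proteins, none passed. Their median was -0.14, and the smallest p belonged to NDUFAB1, the mitochondrial acyl carrier protein. The mean of NDUFAB1 was 45.8 ± 3.20 CPM over high-uptake against 54.0 ± 1.80 CPM over low-uptake libraries (SD, n = 3 each). Its log2 fold change was -0.24 (edgeR adjusted p = 0.161). Of 37 genes of ribosome assembly and of rRNA and mRNA handling, 1 was lower, with a median of -0.13. This was SLIRP, which with LRPPRC stabilises mitochondrial mRNA, at 24.3, 22.6 and 20.6 CPM in high uptake against 31.0, 28.3 and 29.2 CPM in low uptake. Its groups were apart, with a log2 fold change of -0.39 (SE 0.0971, edgeR adjusted p = 0.0447). The SLIRP call was lost without any one library other than high-uptake replicate 3 (edgeR adjusted p = 0.0536 and 0.179 without high-uptake replicates 2 and 4, and 0.081, 0.103 and 0.152 without low-uptake replicates 2, 3 and 4).

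Of 19 genes for charging mitochondrial tRNAs with their amino acids, made up of aminoacyl-tRNA synthetases and the amidotransferase subunits GATB, GATC and QRSL1, 1 was lower, with a median of -0.14. AARS2, the alanine enzyme, had 23.2, 31.3 and 28.0 CPM in high uptake against 34.6, 39.5 and 39.4 CPM in low uptake. Replicate 2 was the lowest library of each group, and the groups did not overlap. The log2 fold change of AARS2 was -0.47 (SE 0.116, edgeR adjusted p = 0.0458). The AARS2 call was lost without high-uptake replicate 2 or 4 (edgeR adjusted p = 0.139 and 0.137) without low-uptake replicate 3 or 4 (0.145 and 0.174), and with a filter of 50 counts in 3 libraries (0.054). In the other 4 lists none passed. The 18 translation factors and associated genes had a median of -0.13, led by OXA1L, which inserts new proteins into the inner membrane (log2 fold change -0.21, edgeR adjusted p = 0.178). The 17 tRNA-processing genes had a median of -0.08, led by HSD17B10, a subunit of mitochondrial RNase P (-0.16, 0.354). The 12 genes of mitochondrial DNA transcription and replication had a median of -0.11, led by the Twinkle helicase, listed as C10orf2 (-0.33, 0.055). The 16 regulators of mitochondrial biogenesis had a median of -0.05, led by PPARGC1A, a coactivator of mitochondrial genes. The mean of PPARGC1A was 2.08 ± 0.855 CPM over high-uptake libraries against 3.42 ± 0.175 CPM over low-uptake libraries (SD, n = 3 each), with a log2 fold change of -0.72 (edgeR adjusted p = 0.161).

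**Figure D4:**
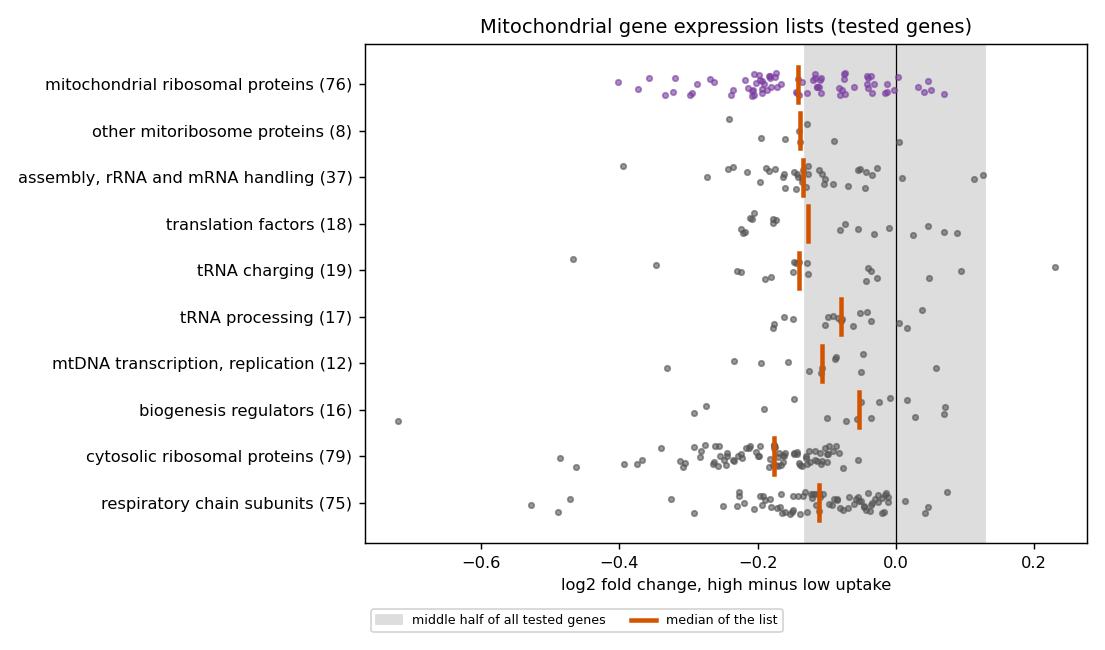
Log2 fold change (high minus low uptake) of the tested genes of each list, 1 point a gene, with the list's median as an orange bar and the interquartile range of all 14598 tested genes shaded. The median of the mitochondrial ribosomal proteins lies at -0.14, and that of each other list is also below 0.

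Most genes of 2 further sets also lay below 0, against 50.7% of all tested genes. The background of genes lower past the threshold was 1.26%. Cytosolic ribosomal proteins had a median of -0.18, with 79 of 79 below 0 and 9 lower, among them RPL23 (log2 fold change -0.34, edgeR adjusted p = 0.0193), RPL34 (-0.37, 0.0202) and RPS27 (-0.46, 0.0251). Nuclear-encoded respiratory chain subunits had a median of -0.11, with 71 of 75 below 0 and 3 lower, COX7C (-0.47, 0.012), NDUFA3 (-0.49, 0.0308) and NDUFS6 (-0.33, 0.0484). Once the trend with gene length was removed, 4 cytosolic ribosomal proteins and 1 respiratory chain subunit were lower (background 1.01%), with medians of -0.11 and -0.05. RPL23 (adjusted p = 0.0723), RPS27 (0.0548), NDUFA3 (0.074) and NDUFS6 (0.154) were then no longer past the edgeR threshold, while RPL34 (0.0457) and COX7C (0.0467) were. Each of these 6 calls was also lost when certain single libraries were left out. Leaving out high-uptake replicate 4 or low-uptake replicate 4 ended all 6, with edgeR adjusted p of 0.0635 to 0.165 and 0.0742 to 0.221. Leaving out low-uptake replicate 3 ended all but that of COX7C (0.0783 to 0.134). Leaving out high-uptake replicate 2 ended those of RPS27, NDUFA3 and NDUFS6 (0.073 to 0.105). The NDUFS6 call was lost without any single library, high-uptake replicate 3 (0.0533) and low-uptake replicate 2 (0.073) included, and with no filter (0.0592).

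Fold change rose weakly with gene length over all tested genes, and had little relation to it among the members. The gene models of the members had a median length of 1312 bp, from 518 to 7827, against 3081 bp for all tested genes. Over all 14598 tested genes the log2 fold change and log2 length had a Pearson r of 0.15 and a Spearman rho of 0.22, and over the 76 members 0.07 and 0.06 (genes of the same libraries, given as a description). After the trend with length was taken out of every library, the median of the members moved to -0.09 and 60 of 76 lay below 0 (78.9%, against 51.1% of all tested genes). No member then passed (0 lower and 0 higher, backgrounds 1.01% and 2.35%). MRPL24 then had a log2 fold change of -0.29 (edgeR adjusted p = 0.0928), and SLIRP one of -0.30 (edgeR adjusted p = 0.127). MRPL19, the member with the longest gene model, moved the other way, from -0.21 to -0.28. GC content was near that of other genes (median 50.8% against 49.98%). After the trend with GC content was taken out in the same way, the members' median stayed at -0.14 and 25 were lower and 0 higher, but the background rose as well, to 8.47% lower and 10.8% higher.

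**Figure D5:**
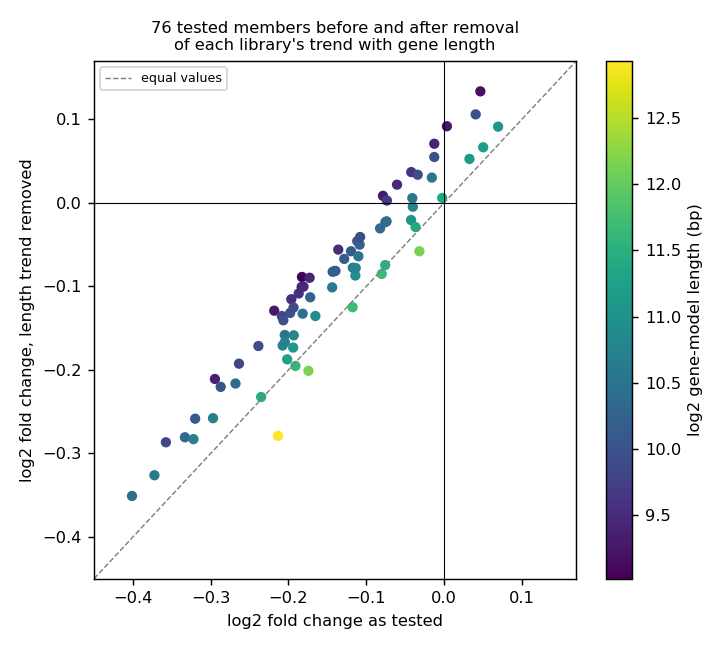
Log2 fold change of the 76 tested members as tested (x axis) and after removal of the trend with gene length (y axis), coloured by log2 gene-model length in bp; the dashed line marks equal values. Most members lie above the line, closer to 0, and 60 of 76 remain below 0 on the y axis.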

How the data were processed

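Total RNA from the sorted cells was made into 6 directional libraries, per the labels' protocols. The tools named in the submitters' processing notes are fastp, STAR and featureCounts, with the build hg19. Which annotation and which strand setting were used is not given in the sources used here. Read counts per gene were deposited as whole numbers, beside the authors' FPKM and TPM values, per the file headers. TPM was not used, and FPKM served only for levels per length and for gene-model length. Counts were tested with edgeR 4.0.16 (R 4.3.3): filterByExpr with its defaults (minimum count 10, minimum total 15) kept 14598 genes, with TMM scaling, the robust quasi-likelihood F-test, two-sided, no covariate, and Benjamini-Hochberg adjustment over all tested genes at 0.05. Standard errors were derived from the fold change and its F statistic. The steps were tested on simulated data, where edgeR recovered 16% of genes changed 1.3-fold and 70% of those changed 1.5-fold. In that simulation edgeR called 7 of 14398 unchanged genes. Alternatives were other scalings, filters, DESeq2 1.42.0, limma-voom 3.58.1, a replicate block, removal of length or GC trends (splines with 4 degrees of freedom) and leaving out libraries. GC content, known for 92.8% of tested genes, and gene overlaps came from GENCODE on another build, so none of its coordinates are printed. Promoters came from RefSeq (GRCh38.p14).

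The members and lists were chosen with earlier results of these data known. Per-library values are given for members past the threshold, the 4 of most positive and the 4 of most negative fold change, the 5 of highest and 3 of lowest FPKM, the MRPS18 family and the 6 of smallest p. From each other list the text names up to 3 genes past the threshold, or else the 1 of smallest p, with values by library, group means or fold changes only. The promoter examples, which were the members of smallest p with a match, GATB, GATC and QRSL1, the members of the authors' list and the pairs in the order of levels stand outside this rule.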

Additional observations from a re-analysis of the deposited data

How the results depend on the processing

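The count of mitochondrial ribosomal proteins higher in high uptake was 0 under every alternative tried, and their median log2 fold change stayed below 0, between -0.17 (total counts only) and -0.13 (without low-uptake replicate 2) but for -0.088 with the length trend removed. The count of members lower, 1 as reported, was 2 with no filter, 4 with DESeq2, 0 with the length trend removed, 25 with the GC trend removed, 2 with both libraries numbered 2 left out, and 0 to 2 with each library left out in turn. The other mitochondrial translation lists had 2 lower as reported, and 4 with total counts only, 1 with a filter of 50 counts in 3 libraries, 4 with DESeq2, 23 with the GC trend removed, 4 with both libraries numbered 2 left out, and 0 to 4 with each library left out. Over all genes, 626 differed as reported, 2607 with the GC trend removed (56.0% of them higher, against 70.6%), and 232 to 738 with each library left out, fewest without low-uptake replicate 4 and most without high-uptake replicate 3. With total counts only, the summed CPM difference was -291.1 instead of -242.7 for the large subunit and -146.9 instead of -123.7 for the small. Same-numbered libraries deviated together with r = 0.45, 0.30 and 0.09 for numbers 2, 3 and 4, not all above 0.1, so the numbers were not treated as pairs. Every library correlated best with its own number except low-uptake replicate 4, which did so with high-uptake replicate 3 (0.22). Whether same-numbered libraries share an origin cannot be told from the labels. With a replicate block, 26 members, 28 genes of the other lists and 3176 genes overall were called (9.71% of all tested genes lower and 12% higher; all 26 members lower), and 22 of the 26 members were among the 25 called with the GC trend removed. The causes of these shifts were not tested. For the single genes named, 44 values under an alternative gained the threshold, 45 lost it and 488 kept their side, and no value past the threshold changed sign. With 3 libraries a group, small differences such as the members' median can be missed by the test of a single gene.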

Other observations

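Of 30 tested genes for mitochondrial import, chaperones and proteases, 25 had a log2 fold change below 0 (against 50.7% of all tested genes). Their median was -0.14, and none passed the adjusted threshold in edgeR. At an unadjusted p under 0.05, 6 were lower and 0 higher (backgrounds 7.97% and 10.4%). HSPA9, the matrix chaperone of the import motor, had the smallest p, with 577, 559 and 626 CPM in high uptake against 763, 697 and 691 CPM in low uptake. Its groups did not overlap, and its log2 fold change was -0.29 (edgeR adjusted p = 0.0575).

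Pseudogenes named after mitochondrial ribosomal protein genes were also counted. MRPL45P2 had 468 counts over the 6 libraries, MRPL42P5 236 and MRPS31P5 220. GENCODE names 75 such pseudogenes, for 34 of the members, but none for MRPL24. For 29 members an exon overlaps one on the opposite strand, which without a stated strand setting leaves their counts uncertain. Among these were MRPL9 (602 bases, with OAZ3 and AL589765.7 together) and MRPS18C (1956 bases, with ABRAXAS1), but not MRPL24.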
